A study of Homo sapiens with 6 samples.

Results

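The 10 genes described here are the FOS-type factors FOS, FOSB, FOSL1 and FOSL2, the JUN-type factors JUN, JUNB and JUND, the zinc finger factor EGR1, and DUSP1 and DUSP6, which code for phosphatases that switch off MAP kinases. They were taken by symbol from a table of 58884 genes, and each symbol stood in 1 row. The RNA came from KYSE70, a human esophageal squamous carcinoma cell line in long use whose NFE2L2 is mutant, and from NRF2null-KYSE70, grown from a single KYSE70 cell clone after CRISPR-Cas9 editing of NFE2L2, the gene of the transcription factor NRF2. Neither line was treated, both grew in RPMI1640 with serum, and each gave 3 libraries. The libraries were numbered within a line by their order in the table. Since NRF2null-KYSE70 was 1 clone, any difference was one between that clone and its parental line. By the study's own account, the edited line still held some NFE2L2 RNA and a shorter NRF2 protein. Nothing said that the libraries of a line came from separate cultures, so p-values measured only the spread between these libraries, which may be technical.

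AP-1 is a dimeric transcription factor. JUN-type proteins pair with each other or with FOS-type proteins, whereas FOS-type proteins need a JUN-type partner, and the pair binds short DNA elements through a basic leucine zipper. FOS, FOSB, JUN, JUNB, EGR1 and DUSP1 are immediate early genes, transcribed within minutes of a growth factor, serum or stress signal without new protein synthesis. FOSL1 and FOSL2 follow later and last longer. DUSP6 removes phosphate from the MAP kinase ERK and is itself induced by ERK signalling. In squamous epithelium, AP-1 takes part in wound repair, growth and differentiation.

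Values are normalized counts, that is, reads per gene divided by 1 scaling factor for each library, and 1 read was worth between 0.889 and 1.14. A log2 fold change is NRF2null-KYSE70 minus KYSE70 for log2(normalized count + 1), so it understates changes of genes with few reads. It was tested with limma over the 15994 genes with a mean of at least 10, and p-values were adjusted over all of them by Benjamini-Hochberg. The reads counted in genes came to between 52072801 and 63975313 per library. NFE2L2 itself fell to 61.4% of its KYSE70 level. All 8 squamous epithelial markers had reads, and their summed normalized counts went from 330016–337494 per library in KYSE70 to 256784–269222 in NRF2null-KYSE70. KRT5, with means of 209917 and 124640, made up the largest part of these sums. It stood at 59.4% of its KYSE70 level, TP63 at 52.7% and DSG3 at 60.0%. The other 5 were higher, with KRT6A at 161%, KRT17 at 158%, CDH1 at 152%, EPCAM at 123% and SOX2 at 111%. All 8 differences had an adjusted p under 0.05, and the median log2 fold change was 0.23. The 5 leukocyte markers summed to 8.0–27.4 in KYSE70 and 42.2–58.2 in NRF2null-KYSE70. Of these, PTPRC went from 1 read to 125, whereas CD79A went from 34 reads to 1 and CD68 from 3 to 0. CD14 went from 9 reads to 13 and CD3E from 0 to 1. The 3 endothelial markers went from 133–149 to 275–450.3, nearly all of it VWF, since PECAM1 and CDH5 had 1 read each. The 6 fibroblast markers went from 1384–1618 to 485–638, with no reads for COL1A2 and DCN, whereas PDGFRB went from 0 reads to 41. Their part in the results was not tested. In bulk RNA, fewer cells that hold a transcript and less of it in each cell cannot be told apart.

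The lines differed most in DUSP6, FOSL1, JUN and FOSB, which were 10.9-fold, 4.95-fold, 4.46-fold and 2.79-fold higher in NRF2null-KYSE70. These 4 genes passed both cut-offs of the study, an adjusted p under 0.05 and a change of 1 or more on the log2 scale, and 0 members passed them as lower, also by an unadjusted limma p, DESeq2 or edgeR. Among all genes tested, 14.7% passed them in either direction and 7.23% passed them as higher. At an adjusted p under 0.05 alone, 8 of the 10 members were higher, FOSL2 was lower and JUND was not called. That rule called 57.6% of all tested genes, 29.3% as higher and 28.3% as lower. Libraries were fully separated by line for 9 members, against 63.4% of all tested genes (32.1% with the NRF2null-KYSE70 libraries above and 31.3% with them below). All 10 members passed the filter on low values. Library 1 was the highest of the NRF2null-KYSE70 libraries for FOSB, FOSL2, JUN, EGR1 and DUSP6, library 2 for FOSL1 and JUNB, and library 3 for FOS, JUND and DUSP1, so no single library led throughout. The median log2 fold change of the 10 was 0.52, against -0.01 over all tested genes. The genes were proposed with results of these data in view, so these shares describe the 10 genes and are not independent evidence.

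**Figure D1:**
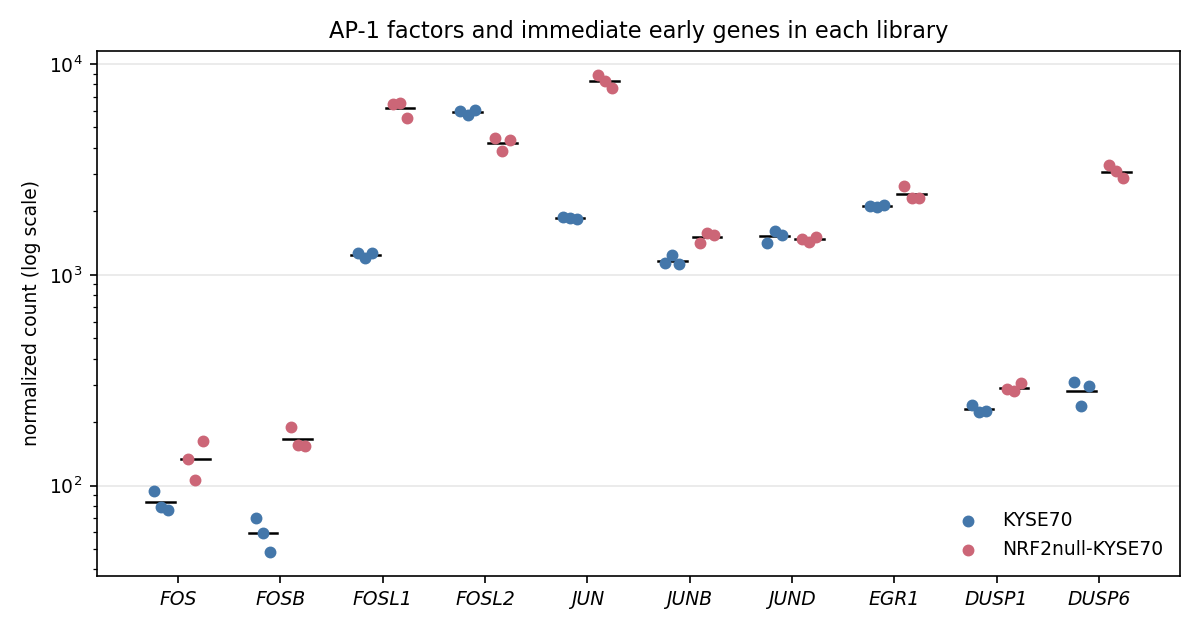
Normalized counts of the 10 genes on a log axis, with 1 point for each of 3 KYSE70 libraries (blue) and 3 NRF2null-KYSE70 libraries (red) and a black bar at each mean. Points of the lines lie far apart for FOSL1, JUN and DUSP6, and overlap only for JUND.

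Of the FOS-type factors, FOSL1 differed most between the lines. FOSL1 codes for FRA1, a FOS-type protein without the strong activation domain of FOS, and lies on chromosome 11 (ENSG00000175592, hg38, 65892049 to 65900573, minus strand). Its normalized counts were 1270.0, 1199 and 1271 in the KYSE70 libraries and 6433, 6521 and 5540.2 in the NRF2null-KYSE70 libraries. Every NRF2null-KYSE70 library was far above every KYSE70 library. The log2 fold change came to 2.30 with an SE of 0.068 (adjusted p = 3.96e-11 by limma), and 4.2% of the tested genes had a larger absolute value. FOSL2 codes for FRA2, the closest relative of FRA1, and lies on chromosome 2 (ENSG00000075426, 28392448 to 28417317, plus strand). It moved the other way, from 5966, 5716 and 6046 normalized counts in KYSE70 to 4445, 3863 and 4338 in NRF2null-KYSE70. This left 71.3% of the parental level at a log2 fold change of -0.49, SE 0.059 and adjusted p = 1.37e-05 by limma.

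FOS and FOSB, the rapidly induced members, were scarce in both lines. FOSB (ENSG00000125740, chromosome 19, 45467995 to 45475179, plus strand) had 70.3, 59.9 and 48.5 normalized counts in KYSE70 and 188.7, 154.9 and 154.1 in NRF2null-KYSE70. These rest on 191 and 479 reads in all, and the lines did not overlap. The log2 fold change came to 1.47 with an SE of 0.21 (adjusted p = 5.99e-05 by limma). FOS (ENSG00000170345, chromosome 14, 75278826 to 75282230, plus strand) had 94.3, 78.9 and 77.0 normalized counts in KYSE70 and 133.9, 105.9 and 162.1 in NRF2null-KYSE70, from 266 and 382 reads. The NRF2null-KYSE70 libraries spread widely and the lowest was close to the highest KYSE70 library. Its log2 fold change of 0.66, SE 0.21 and adjusted p = 0.0174 by limma, lost the call without KYSE70 library 2 (adjusted p = 0.0533), KYSE70 library 3 (0.0513) or NRF2null-KYSE70 library 3 (0.0823), in a range from 0.0071 to 0.0823 over 18 alternatives.

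Of the JUN-type factors, JUN stood out. JUN codes for c-JUN, a strong activator and the main target of the JNK kinases within AP-1, and lies on chromosome 1 (ENSG00000177606, 58776845 to 58784048, minus strand). It had 1876, 1867 and 1832 normalized counts in KYSE70 and 8901, 8272 and 7702 in NRF2null-KYSE70. The coefficient of variation was 1.27% in KYSE70 and 7.23% in NRF2null-KYSE70, small beside the gap between the lines. The log2 fold change came to 2.15 with an SE of 0.058 (adjusted p = 1.83e-11 by limma). JUNB (ENSG00000171223, chromosome 19, 12791486 to 12793315, plus strand), which often opposes c-JUN, rose 1.29-fold. It had 1132, 1245 and 1125 normalized counts in KYSE70 and 1409, 1577 and 1542 in NRF2null-KYSE70. The lines did not overlap, at a log2 fold change of 0.37, SE 0.074 and adjusted p = 0.000829 by limma. In the annotation, 259 of the 1830 exon bases of JUNB are also exon of HOOK2 on the other strand, and whether the counting used strand was not stated. HOOK2 had 8667 reads in KYSE70 and 9240 in NRF2null-KYSE70, against 3712 and 4348 for JUNB. JUND (ENSG00000130522, chromosome 19, 18279694 to 18281622, minus strand), a JUN-type factor that most cells express steadily, had 1418, 1613 and 1551 normalized counts in KYSE70 and 1481, 1433 and 1507 in NRF2null-KYSE70. Its libraries overlapped between lines, and the log2 fold change of -0.05, SE 0.069 and adjusted p = 0.559 by limma, was smaller than the spread between replicates.

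Levels of different genes can be set side by side per kilobase of exon (the union of a gene's exons in GENCODE v44). In KYSE70 the order of levels per kilobase was FOSL2 (825 ± 24.0, SD, n = 3), JUND (792 ± 51.7), EGR1 (675 ± 9.3), FOSL1 (661 ± 21.8), JUNB (638 ± 36.6) and JUN (513 ± 6.5). By this length, FOSL2 and JUND did not differ beyond their spread, nor did EGR1, FOSL1 and JUNB. These ties depend on the length used. With the longest transcript as the length, every FOSL2 library (880 ± 25.6) lay above those of JUND. Every FOSL1 library (732 ± 24.1) then lay above those of EGR1 and JUNB. DUSP1 (114 ± 4.4), DUSP6 (73.2 ± 9.8), FOS (26.2 ± 3.0) and FOSB (10.7 ± 2.0) came last. In NRF2null-KYSE70, FOSL1 (3267 ± 287.5) and JUN (2288 ± 166) led all 10. JUNB (825 ± 48.5), DUSP6 (800.3 ± 56.5), EGR1 (771 ± 60.8) and JUND (764 ± 19.5) followed and lay within each other's spread. With the longest transcript as the length, DUSP6 (851 ± 60.1) came before JUNB, and each of its libraries lay above those of JUND. FOSL2 (588.5 ± 43.3), DUSP1 (145 ± 7.4), FOS (42.0 ± 8.8) and FOSB (29.9 ± 3.5) were lowest. The libraries of FOS and FOSB overlapped there, but not with the longest transcript as the length. FOS and FOSB remained the least abundant of the 10 per kilobase in each line.

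The make-up of both families therefore differed between the lines. FOSL1 made up 43.5%, 43.3% and 43.4% of the summed FOS-type level per kilobase in the KYSE70 libraries and 83.0%, 85.2% and 81.1% in the NRF2null-KYSE70 libraries. FOSL2 went from 54.2% ± 0.34 to 15.0% ± 1.72 (± SD, 3 libraries each). By this length, FOS and FOSB together stayed under 3% in each library. With the longest transcript as the length that bound did not hold, since FOS was 2.64% and FOSB 1.10% in KYSE70 library 1. The summed level of the family per kilobase was 1523 ± 46.3 in KYSE70 and 3927 ± 267 in NRF2null-KYSE70 (± SD, 3 libraries each). Within the JUN family, JUN itself went from 27.7%, 25.4% and 26.3% to 61.5%, 58.7% and 56.7%. JUNB went from 32.8% ± 0.79 to 21.3% ± 1.77 of the family and JUND from 40.7% ± 1.31 to 19.7% ± 0.97 (± SD, 3 libraries each), although neither had a lower level of its own called. These shares are descriptions and were not tested.

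**Figure D2:**
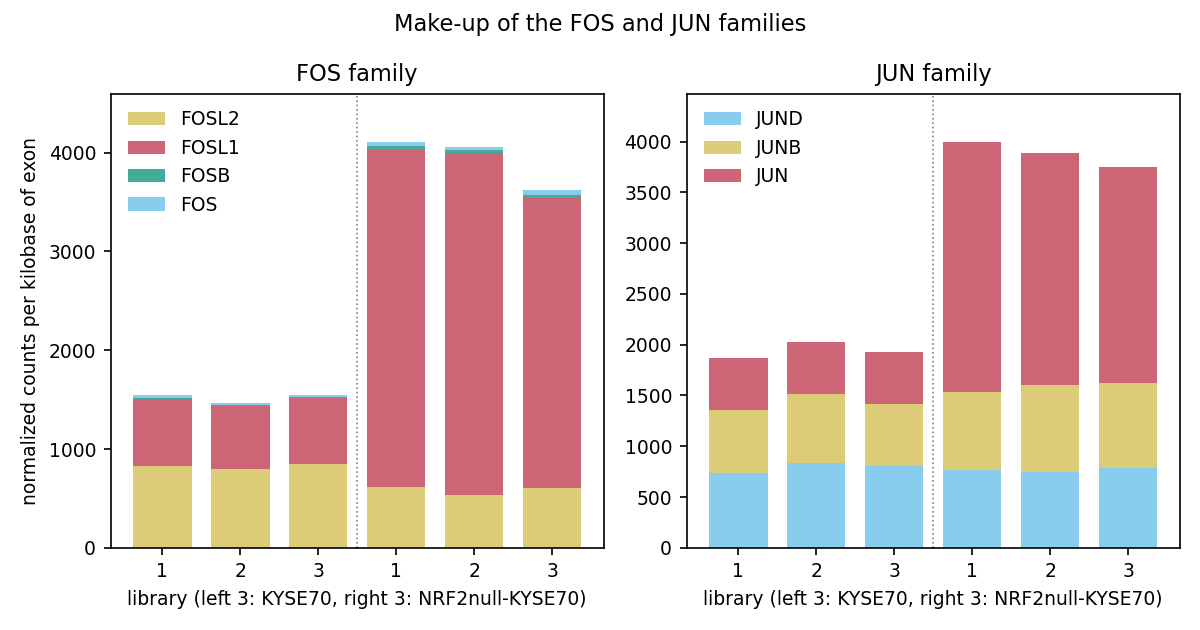
Stacked normalized counts per kilobase of exon for the FOS family (left) and the JUN family (right), with 1 bar for each library. FOSL1 and JUN fill most of each NRF2null-KYSE70 bar, whereas FOSL2 and JUND hold the largest share of each KYSE70 bar.

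EGR1, a zinc finger activator induced through serum response elements, and DUSP1, a nuclear phosphatase of the stress kinases and ERK, were 1.14-fold and 1.27-fold higher in NRF2null-KYSE70. EGR1 (ENSG00000120738, chromosome 5, 138465479 to 138469303, plus strand) had 2109, 2093 and 2149 normalized counts in KYSE70 and 2639, 2303 and 2314 in NRF2null-KYSE70. NRF2null-KYSE70 library 1 was above the other two. The log2 fold change came to 0.19 with an SE of 0.065 (adjusted p = 0.024 by limma), beside a median of 0.20 over 40 neighbouring protein-coding genes. The call was lost without NRF2null-KYSE70 library 1 (adjusted p = 0.0766), KYSE70 library 1 (0.0600) or KYSE70 library 2 (0.0774). Over 18 alternatives the adjusted p of EGR1 ran from 0.0188 to 0.901. DUSP1 (ENSG00000120129, chromosome 5, 172768096 to 172771195, minus strand) had 240.1, 224.0 and 225.7 normalized counts in KYSE70 and 287.0, 279.5 and 308.2 in NRF2null-KYSE70. Its libraries did not overlap, and the log2 fold change came to 0.34 with an SE of 0.12 (adjusted p = 0.0318 by limma). Leaving out KYSE70 library 2 (0.0791) or 3 (0.0740), or NRF2null-KYSE70 library 1 (0.0561) or 3 (0.0989), ended the call, and over 18 alternatives the adjusted p of DUSP1 ran from 0.00674 to 0.212. The last came after centring on its 40 neighbouring genes, which left a log2 fold change of 0.19.

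DUSP6, the ERK-specific phosphatase, showed the largest difference of the 10. It lies on chromosome 12 (ENSG00000139318, 89347235 to 89352501, minus strand) and had 310.4, 239.5 and 297.4 normalized counts in KYSE70 and 3304, 3094 and 2868 in NRF2null-KYSE70. The lines were separated by a wide margin. The log2 fold change came to 3.45 with an SE of 0.10 (adjusted p = 3.96e-11 by limma), and 2.02% of the tested genes had a larger absolute value. Its neighbours differed in the opposite direction, with a median log2 fold change of -0.58 over 40 protein-coding genes, and after that median was subtracted DUSP6 stood at 4.03. Of its 3859 exon bases, 1105 are shared with a gene on the other strand (AC024909.2), which had 48 reads in the KYSE70 libraries and 99 in the NRF2null-KYSE70 libraries, against 895 and 8924 for DUSP6.

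**Figure D3:**
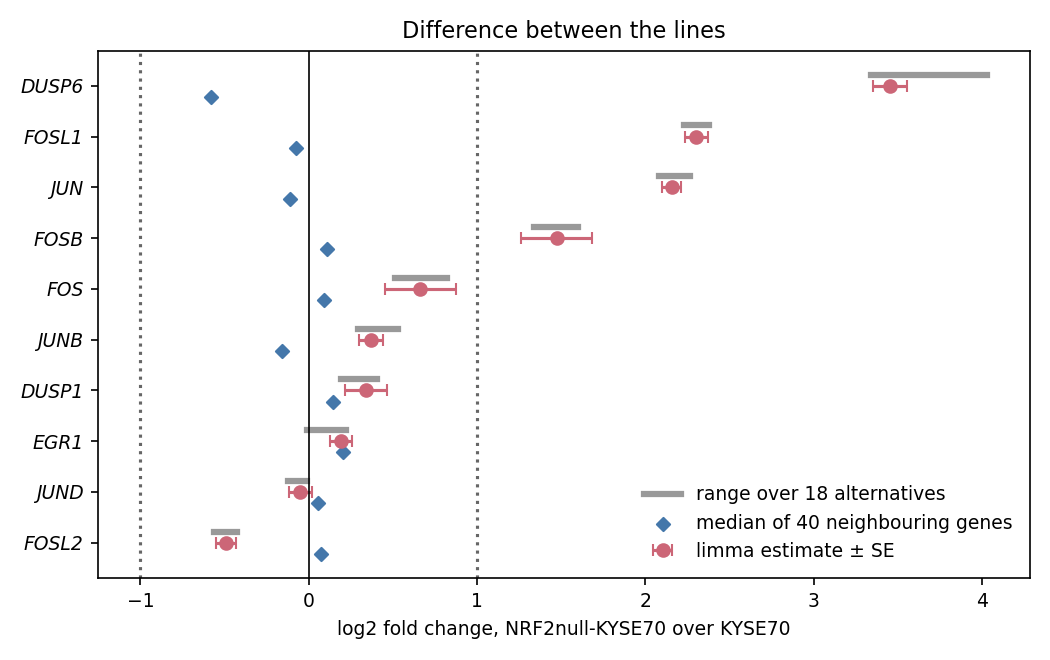
Log2 fold change of each gene (red point, bar ± SE), its range over 18 alternatives (grey line) and the median of its 40 neighbouring genes (blue diamond); dotted lines mark an absolute value of 1. DUSP6, FOSL1, JUN and FOSB lie right of 1 throughout, and EGR1 lies beside its neighbours.

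The DNA before the start sites is shown for DUSP6 and JUN, the largest rises but for FOSL1, which had no entry, and for EGR1 and DUSP1 as genes of the same signal response that differed less. RefSeq windows (GRCh38.p14) of 300 bases, from 250 before to 50 after the start, were found for 9 of the 10 genes. The letters searched, on both strands, were TGACTCA (the AP-1 element), TGACGTCA (the cyclic AMP response element), TGACATCA (the AP-1-like site known from JUN), the CArG box bound by SRF, and TGACNNNGC (the core of the antioxidant response element bound by NRF2). Capitals mark the matches in the 250 bases before each start, written 5′ to 3′ on the gene's strand.
JUN (chr1:58784048-58784297, minus strand): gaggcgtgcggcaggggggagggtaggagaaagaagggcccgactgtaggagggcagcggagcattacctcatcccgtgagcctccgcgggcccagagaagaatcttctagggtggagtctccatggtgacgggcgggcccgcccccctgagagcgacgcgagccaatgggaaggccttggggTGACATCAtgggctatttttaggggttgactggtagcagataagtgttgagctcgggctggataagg
DUSP6 (chr12:89352502-89352751, minus strand): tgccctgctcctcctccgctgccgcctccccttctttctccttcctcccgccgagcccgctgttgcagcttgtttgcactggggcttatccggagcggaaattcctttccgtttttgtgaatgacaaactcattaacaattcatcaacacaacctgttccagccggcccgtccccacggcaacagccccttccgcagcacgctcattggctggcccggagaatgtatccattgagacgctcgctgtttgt
EGR1 (chr5:138465229-138465478, plus strand): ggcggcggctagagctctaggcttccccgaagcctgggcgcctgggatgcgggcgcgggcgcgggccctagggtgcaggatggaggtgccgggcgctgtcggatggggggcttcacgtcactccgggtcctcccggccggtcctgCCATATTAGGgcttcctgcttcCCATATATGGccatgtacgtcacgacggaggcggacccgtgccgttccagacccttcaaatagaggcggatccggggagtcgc
DUSP1 (chr5:172771196-172771445, minus strand): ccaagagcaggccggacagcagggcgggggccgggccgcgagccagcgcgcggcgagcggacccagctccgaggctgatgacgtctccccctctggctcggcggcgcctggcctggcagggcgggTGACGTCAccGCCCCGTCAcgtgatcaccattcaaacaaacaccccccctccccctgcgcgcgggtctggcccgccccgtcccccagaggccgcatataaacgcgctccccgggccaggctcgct
JUN held TGACATCA from base -67 to -60, a sequence found in 2.61% of 35116 such windows. DUSP6, which differed most, held none of the 5 elements. EGR1 held 2 CArG boxes, from -105 to -96 and from -83 to -74, and 1.29% of all windows held one. DUSP1 held TGACGTCA from -125 to -118, as did JUND from -200 to -193, against 1.85% of all windows. TGACTCA was found in FOSL2 only, from 5 to 11 bases after the start, and in 4.95% of all windows. The NRF2 core TGACNNNGC was in DUSP1 and JUND and in 13.3% of all windows, and in neither gene did it overlap the other match. A match is a description of the letters and not a site shown to be bound.

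Other AP-1 and bZIP factors moved in both directions. Of 14 listed, 12 were tested, 6 were higher and 5 were lower (limma adjusted p under 0.05), and the median log2 fold change was 0.23. Among all tested genes, the same rule called 29.3% as higher and 28.3% as lower. MAFF, a small MAF protein that pairs with NRF2 and other bZIP factors, rose from 314 ± 7.66 to 2369 ± 121 normalized counts (± SD, 3 libraries each), or 7.55-fold (limma adjusted p = 1.65e-11). JDP2, a repressor that dimerizes with JUN, rose 2.74-fold (limma adjusted p = 2.64e-09). MAF, a large MAF factor, fell to 333 ± 62.9 from 1059 ± 39.8 normalized counts (± SD, 3 libraries each; limma adjusted p = 1.24e-07).

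More immediate early genes were higher than lower, and the sizes were uneven. Of 39 listed, 36 were tested, 22 were higher and 6 were lower at a limma adjusted p under 0.05, with a median log2 fold change of 0.42. These calls made up 77.8% of the listed genes tested, against 57.6% of all tested genes. CCN2 and CCN1, secreted matrix proteins that also respond to the YAP coactivator, had the largest rises. CCN2 went from 12.0 ± 1.5 to 1516 ± 149 normalized counts and CCN1 from 1125 ± 39.9 to 15445 ± 845 (± SD, 3 libraries each), with limma adjusted p-values of 9.51e-12 and 1.2e-13. NR4A2, an orphan nuclear receptor, was the 1 gene of this list that passed both cut-offs as lower, and fell from 375 ± 12.0 to 36.2 ± 2.46 normalized counts (± SD, 3 libraries each; limma adjusted p = 6.45e-09). Heat shock and handling stress genes, a list that responds to stress on harvested cells, had 0 of 8 higher and 3 lower (limma adjusted p under 0.05), and 0 were higher by DESeq2, by edgeR or at an unadjusted p under 0.05. There was 1 higher and 2 lower without NRF2null-KYSE70 library 3 (HSPH1 higher), and 1 higher and 4 lower after centring on neighbouring genes (DNAJB1 higher), both named after their values were seen. In the main fit 37.5% of these 8 genes were called, against 57.6% of all tested genes, and their median log2 fold change was -0.05. The largest of these, HSPB1, a gene named after its value was seen, had a log2 fold change of -0.67.

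Genes that dampen or report ERK signalling were mostly higher, as DUSP6 was. Of 16 ERK feedback genes, all tested, 13 were higher and 2 were lower at a limma adjusted p under 0.05, and 8 and 2 of these also passed the log2 cut-off of 1. Over all tested genes, 29.3% were higher and 28.3% lower by the first rule, and 7.23% and 7.43% passed both cut-offs. The median log2 fold change of the 16 genes was 1.01. The inhibitors of receptor signalling SPRY4 and SPRY2 rose from 266 ± 17.7 to 2095 ± 106 and from 497 ± 35.3 to 3348 ± 59.0 normalized counts (± SD, 3 libraries each), with limma adjusted p-values of 3.59e-11 and 1.31e-11. DUSP5, a nuclear ERK phosphatase, rose 5.41-fold (limma adjusted p = 1.43e-09). EPHA4, an ephrin receptor, fell from 2182 ± 142 to 382.6 ± 44.2 normalized counts (± SD, 3 libraries each; limma adjusted p = 3.48e-10).

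The other MAP kinase phosphatases were split. Of 8 listed, 7 were tested, with 3 higher and 3 lower at a limma adjusted p under 0.05 (85.7% called, against 57.6% of all tested genes). DUSP4 and DUSP8 rose 2.59-fold and 2.13-fold (limma adjusted p = 0.000177 and 0.000455). DUSP9, which like DUSP6 acts on ERK in the cytoplasm, fell from 3120.0 ± 105 to 1361 ± 89.1 normalized counts (± SD, 3 libraries each; limma adjusted p = 8.87e-09). DUSP6 and DUSP9 thus went in opposite directions.

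The kinases and factors upstream of AP-1 were close to balance. Of 32 listed and tested, 13 were higher and 10 were lower at a limma adjusted p under 0.05, and the median log2 fold change was 0.08. The share called was 71.9%, against 57.6% of all tested genes. MAP2K6, an activator of the p38 kinases, fell from 826.6 ± 69.6 to 37.1 ± 8.63 normalized counts (± SD, 3 libraries each; limma adjusted p = 7.65e-10). MAPK10, the JNK form typical of neurons, rose from 29.3 ± 8.41 to 200.1 ± 36.8 (± SD, 3 libraries each; limma adjusted p = 1.7e-06). RPS6KA2 and RPS6KA3, kinases activated by ERK, rose 4.07-fold and 2.42-fold (limma adjusted p = 4.6e-10 and 4.16e-09).

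Genes often cited as AP-1 targets were mostly higher where they had enough reads to test. Of 22 listed, 14 were tested, 11 were higher and 0 were lower at a limma adjusted p under 0.05. That was 78.6% of the listed genes tested, against 57.6% of all tested genes. PLAU, 1 of the 11, had means of 3.34 in KYSE70 and 17.5 in NRF2null-KYSE70, and passed the filter only through NRF2null-KYSE70. MMP1, with 29 reads in KYSE70 and 12 in NRF2null-KYSE70, did not pass it. Both were named after their values were seen. With a filter at a mean of 50, 10 were higher and 0 lower, and without a filter 11 and 0. On the same 14 genes, DESeq2 and edgeR also called 11 higher and 0 lower. At an unadjusted p under 0.05, each of the 3 tools had 12 higher and 0 lower. Limma without the trend called 11 higher and 1 lower, the protease gene MMP10, named after its value was seen. The median log2 fold change was 0.96. The cytokines CXCL8 and IL1A rose from 243 ± 30.3 to 3952 ± 272 and from 424 ± 71.3 to 4389 ± 356 normalized counts (± SD, 3 libraries each), with limma adjusted p-values of 7.04e-12 and 6.22e-11. PLAUR, the urokinase receptor, rose 2.17-fold (limma adjusted p = 1.47e-07). SPP1, which codes for the matrix protein osteopontin, rose 2.15-fold (limma adjusted p = 5.94e-09). The matrix metalloproteinases MMP3 and MMP9, named after their values were seen, had no reads. Of all listed genes, 7 stood on more than 1 list, among them MAFF, DUSP5 and DUSP4.

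**Figure D4:**
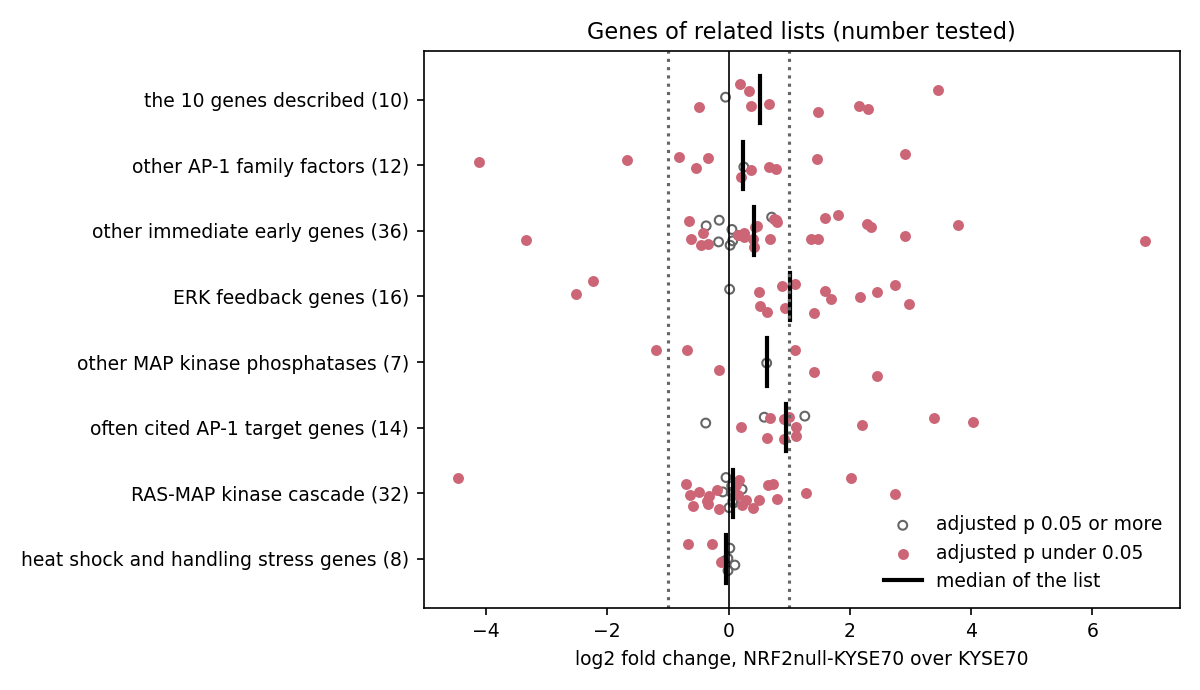
Log2 fold change of each tested gene of the 10 described and of 7 related lists, with filled red points for an adjusted p under 0.05, open points for the rest and a black bar at each median. The medians of the ERK feedback and AP-1 target lists lie near 1, and those of the kinase cascade and the heat shock list near 0.

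Genes whose profile over the 6 libraries lay close to that of FOSL1 included FST (the activin antagonist follistatin), EMP1 (an epithelial membrane protein), ULBP1 (a ligand of the NKG2D receptor of killer cells) and ETV5 (an ETS factor). Their Euclidean distances were 0.17, 0.18, 0.21 and 0.22 in centred log2 values, among 13003 genes compared, and their log2 fold changes lay from 2.17 to 2.31. ETV5, itself on the ERK feedback list, went from 3614 to 16317 normalized counts. The closest to FOS were MAPT, CYP26A1, TP53INP1, EFNB3 and AC139795.2, at distances from 0.22 to 0.29 and with log2 fold changes from 0.54 to 0.86. With 6 libraries in 2 lines, these distances mostly compare 1 difference and are a description.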

How the data were processed

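Total RNA of the lines was sequenced (NEBNext Ultra libraries, paired reads). The authors aligned reads to hg38 with STAR, counted them per gene with featureCounts and scaled them with DESeq2. The submitters' processing notes also list FastQC 0.11.5, cutadapt 1.12 and build mm10. The values the authors deposited are a signal of this kind, normalized counts for each library, and all came out as whole reads after division by what 1 read is worth (tolerance 0.01), so depth was known.

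From the deposited values, log2(normalized count + 1) was tested with limma 3.58.1 (trend, R 4.3.3) on genes with a mean of at least 10, with Benjamini-Hochberg adjustment. The limma test was checked on simulated reads in which few genes changed, all by more than 1 on the log2 scale. That check did not cover smaller changes or data in which most genes differ. Alternatives were other pseudocounts, filters and scalings, DESeq2 1.42.0 and edgeR 4.0.16 on the recovered reads, centring on neighbouring genes, a test against a fold threshold (limma treat), and leaving out each library. Positions and lengths came from GENCODE release 44. Promoters came from RefSeq GRCh38.p14.

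The 10 genes and the lists were chosen with earlier results of these data known. All 10 are named. From each list, up to 4 genes are named, those with the largest absolute log2 fold change past both cut-offs at a mean of at least 100. For FOS and FOSL1, the 5 nearest genes with a mean of at least 50 are named, except 1 that is not reported here. For 3 symbols, the table's name differed and the gene was matched by identifier.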

Additional observations from a re-analysis of the deposited data

How the results depend on the processing

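No paired analysis was possible because the columns of the table carry the names of the lines and no replicate numbers. FOSB, FOSL1, FOSL2, JUN, JUNB and DUSP6 kept their direction and their adjusted p under 0.05 in all 18 alternatives with a test against no change, and JUND stayed uncalled in all 18. FOS was called in 15, EGR1 in 12 and DUSP1 in 11 of 18. Besides the left-out libraries, scaling to total reads ended the call for EGR1 (adjusted p = 0.139) and DUSP1 (0.0868), as did limma without the trend for EGR1 (0.0689) and no filter for DUSP1 (0.0502). The cause was not tested. After centring on 40 neighbouring genes, EGR1 turned to -0.011 (adjusted p = 0.901), DUSP1 stood at 0.19 and lost its call (adjusted p = 0.212), and 5 heat shock genes were called (1 higher, 4 lower), against 3 lower. The number of members called ran from 6 to 9 over the leave-one-out fits. Under limma treat, which tests against an absolute log2 fold change of 1, FOSL1, JUN and DUSP6 passed and FOSB did not (adjusted p = 0.275), and 970 of all genes passed, against 2344. A filter at a mean of 50 left 1511, with fewer genes tested, and leaving out 1 library gave 2228 to 2346. Scaling to total reads moved the median of all genes by -0.075. With the longest transcript as the length, the KYSE70 shares were 2.38% for FOS, 0.946% for FOSB, 43.9% for FOSL1, 52.8% for FOSL2, 28.6% for JUN and 31.9% for JUNB, and the NRF2null-KYSE70 shares were 1.48% for FOS, 1.01% for FOSB, 61.5% for JUN and 18.5% for JUND. The call counts of the other related lists stayed within 1.5 times under every alternative run for them, which did not include limma treat. Depth limits FOS and FOSB most, with 191 to 479 reads per line.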
